A study of Mus musculus with 80 samples.

Results

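Disease-associated microglia genes are the transcripts that microglia raise around amyloid plaques, dying neurons and damaged myelin. The 10 followed here are Trem2, Tyrobp, Clec7a, Axl, Itgax, Apoe, Lpl, Spp1, Cst7 and Cd9, taken by gene symbol as a list of known genes. All 10 were found in both deposited gene tables, as 10 of the 15919 genes of a comparison of sorting methods and 10 of the 16000 genes of a comparison of cell preparations. The mice carried no disease model, so the values describe these genes in unchallenged brain and in cells taken from it.

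The study compared ways of isolating microglial RNA in the mouse brain. Mice carried Cx3cr1(Jung)-cre/Ert2 and NuTRAP alleles (Cx3cr1-NuTRAP, both sexes), received tamoxifen at about 3 months of age at 100 mg/kg body weight, and were used at 5 to 8 months. Every library came from such mice, and no library of mice without cre or without tamoxifen was analysed here. Cre under the Cx3cr1 promoter puts an eGFP tag on the ribosomes of Cx3cr1+ cells, which include border-associated macrophages beside microglia, and the interval after tamoxifen was meant to let labelled blood cells turn over. Each preparation was sequenced as Input, the RNA of the homogenate, and as TRAP (translating ribosome affinity purification), the RNA pulled down with the tagged ribosomes by an anti-GFP antibody.

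The sorting comparison held 48 libraries from 14 mice in 12 groups of 3 to 5. Tissue was homogenized brain, and Cell was an unsorted suspension made by papain digestion and mechanical dissociation with warming. Suspensions were also passed over CD11b magnetic beads (autoMACS), through a cartridge sorter on CD11b, CD45 and eGFP (Tyto), over both in turn (autoMACS to Tyto), or through a cytometer on the same 3 markers (FACSAria). The cell preparation comparison held 32 libraries from 12 mice in 8 groups of 4, namely Tissue, the same enzymatic suspension without inhibitors, Cell(-), the suspension with actinomycin D, triptolide and anisomycin in the enzymatic step, Cell(+), and a cold, purely mechanical suspension cleaned of myelin on Percoll, Dounce. Tissue and Cell came from the same 4 mice, as did Cell(-) and Cell(+). Of the sorts, autoMACS shared 3 mice with autoMACS to Tyto, and Tyto shared 3 with FACSAria. The Tissue groups of both comparisons came from 1 set of 4 mice. The sorts shared no mouse with Tissue or Cell, so sorting and mouse cannot be told apart there. In the cell preparation comparison, Tissue, the enzymatic suspensions and Dounce came from separate mice, so preparation and mouse are likewise mixed. An earlier deposited table of this comparison held no Dounce library.

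Microglia are the resident macrophages of the brain and keep a stable homeostatic program there. In the disease-associated state, TREM2 on the cell surface senses lipids and lipoproteins, signals through its adaptor TYROBP (DAP12), and is needed for the full change, in which homeostatic genes fall and genes of phagocytosis, lysosomes and lipid handling rise. Isolation can itself change the transcripts of microglia, so the baseline of such genes in isolated cells matters to anyone who measures them.

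In the mm10 coordinates deposited with the counts, Trem2 lies at chr17:48346401-48352276 (+ strand), Tyrobp at chr7:30413788-30417579 (+), Clec7a at chr6:129461591-129472777 (-), Axl at chr7:25756500-25788733 (-) and Itgax at chr7:128129568-128150657 (+). The secreted members Apoe at chr7:19696244-19699166 (-), Lpl at chr8:68880555-68906932 (+), Spp1 at chr5:104435111-104441053 (+) and Cst7 at chr2:150570415-150578944 (+), and the membrane protein gene Cd9 at chr6:125460266-125494755 (-), complete the set. Of the 10 genes, Apoe, Axl, Tyrobp and Itgax were on chromosome 7, and Clec7a and Cd9 on chromosome 6.

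RefSeq start sites on GRCm38.p6, the assembly behind mm10, were matched for 8 of the 10 genes, with 12 entries in all. Tyrobp and Lpl had no entry. The 250 bases before each start were searched for an AP-1-type motif and for a PU.1-type motif, both on either strand. The AP-1 pattern was TGANTCA with any base at N, a loose form of the element of FOS and JUN proteins. The PU.1 pattern was GAGGAA, the core read by the myeloid factor PU.1. The motifs did not overlap. Of the 8 genes, Trem2 and Itgax held the AP-1 letters, against 6.75% of all 32851 windows of this length. In 5 genes (Trem2, Clec7a, Axl, Apoe and Spp1) a window held the PU.1 letters, against 23.3% of windows. Apoe, Clec7a and Spp1 had several windows each, so counts of genes and shares of windows are not like for like. Windows of both AP-1 genes, and of Clec7a and Spp1 as examples with the PU.1 letters, are given 5′ to 3′ on the gene's strand. The matched letters are in capitals.
Trem2, chr17:48346151-48346400 (+): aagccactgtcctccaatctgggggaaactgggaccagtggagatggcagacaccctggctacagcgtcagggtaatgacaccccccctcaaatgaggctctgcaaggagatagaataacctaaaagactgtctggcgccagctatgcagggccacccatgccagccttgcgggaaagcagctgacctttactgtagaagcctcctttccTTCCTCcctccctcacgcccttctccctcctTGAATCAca
Itgax, chr7:128129300-128129549 (+): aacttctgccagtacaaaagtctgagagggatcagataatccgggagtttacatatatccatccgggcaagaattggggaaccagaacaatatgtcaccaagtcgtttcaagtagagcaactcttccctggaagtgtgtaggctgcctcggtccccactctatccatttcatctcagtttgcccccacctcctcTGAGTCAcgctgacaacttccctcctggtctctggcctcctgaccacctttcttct
Clec7a, chr6:129472780-129473029 (-): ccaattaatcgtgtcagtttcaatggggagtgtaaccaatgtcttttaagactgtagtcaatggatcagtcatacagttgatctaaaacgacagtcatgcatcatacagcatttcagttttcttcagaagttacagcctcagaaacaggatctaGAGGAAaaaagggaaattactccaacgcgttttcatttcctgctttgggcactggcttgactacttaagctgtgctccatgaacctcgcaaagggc
Spp1, chr5:104434861-104435110 (+): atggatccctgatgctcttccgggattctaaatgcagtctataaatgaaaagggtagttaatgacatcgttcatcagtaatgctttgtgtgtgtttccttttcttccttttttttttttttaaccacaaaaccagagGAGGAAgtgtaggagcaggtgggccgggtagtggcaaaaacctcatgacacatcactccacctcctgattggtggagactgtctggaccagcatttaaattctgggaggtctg
The Trem2 window ended with TGAATCA from 9 bases before the start and held the PU.1 letters on the other strand (read as TTCCTC) 40 bases before it. The Itgax match (TGAGTCA) stood 56 bases before the start, the Clec7a match (GAGGAA) 96 bases and the Spp1 match (GAGGAA) 113 bases. A match describes these letters only and is not evidence of binding.

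Libraries held 7129464 to 20168116 counts in the sorting comparison and 2471448 to 14650287 in the cell preparation comparison, with the Dounce TRAP libraries shallowest at 2471448 to 4724538. Levels below are CPM, a gene's count scaled to a common library total after TMM normalization, which is 1 scale within each comparison. A gene was called when edgeR's quasi-likelihood test gave an adjusted p under 0.1 over all genes tested and the change was over 2-fold. All changes in words such as rose or fell refer to called genes. The 25 measured genes of a list of 26 microglial reference markers summed to 539.7 to 797 CPM in Tissue Input, 12739.9 to 15564 in Tissue TRAP, 8739.5 to 11336 in Cell Input and 66170.2 to 71689 in Cell TRAP. In bulk libraries fewer cells of a type and less RNA per cell cannot be told apart. The libraries of a group came from separate mice, while some groups shared mice with other groups.

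**Figure D1:**
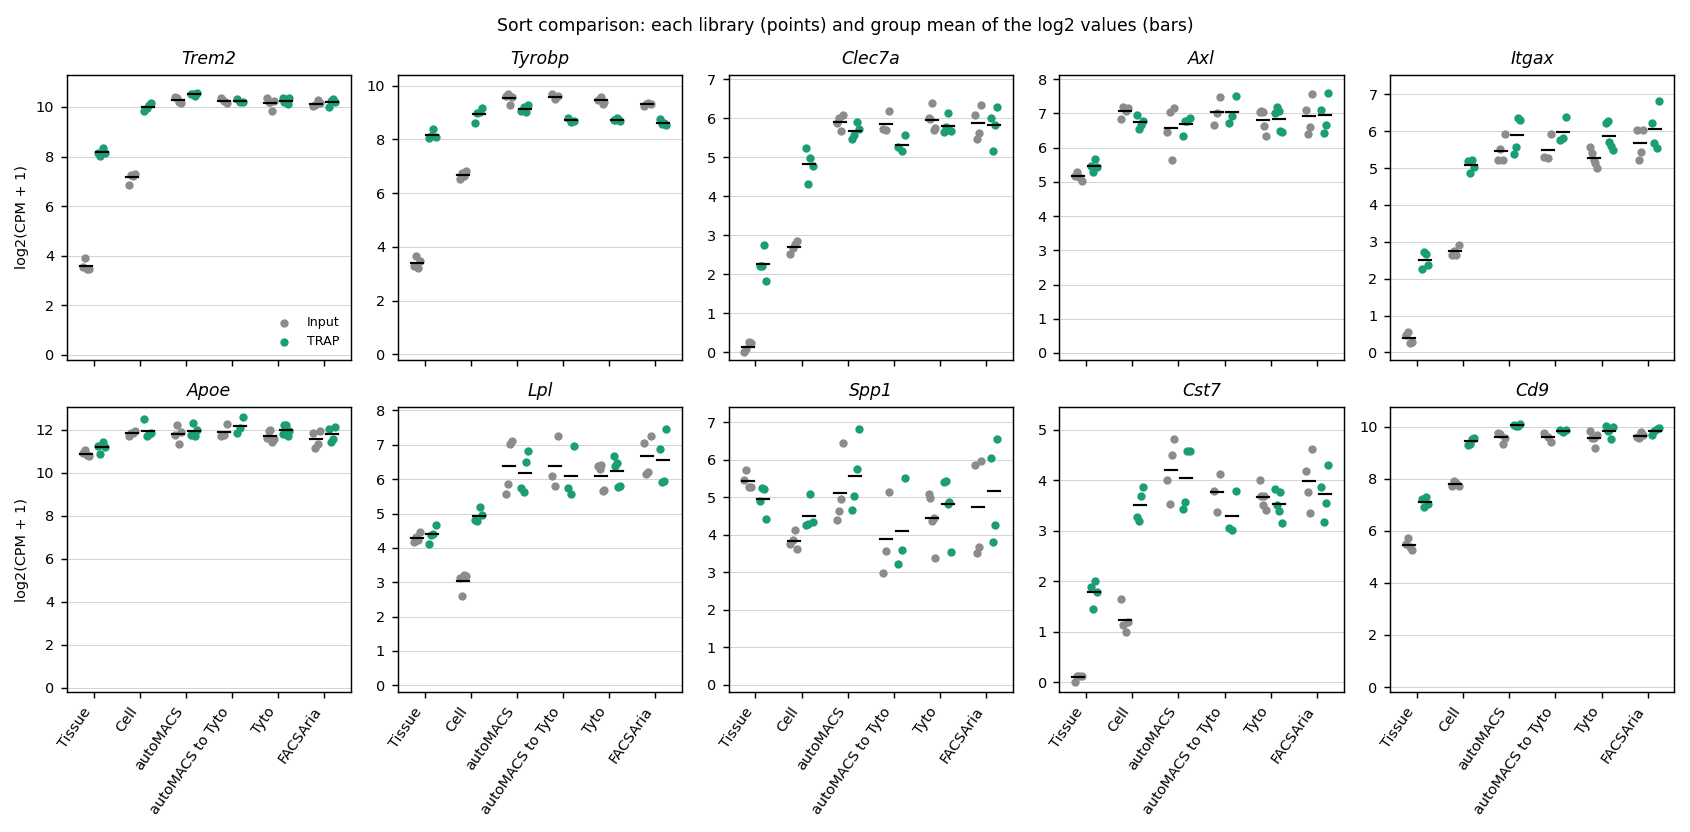
Levels of the 10 genes in the sorting comparison as log2(CPM + 1) on the y axis, for Tissue, Cell and the 4 sorts on the x axis. Points are libraries (grey, Input, green, TRAP) and bars are means of the log2 values. Input and TRAP are far apart in Tissue for Trem2, Tyrobp and Cd9 and overlap there for Lpl, Axl and Apoe. In the sorted preparations they lie close together for most genes, with Tyrobp lower in TRAP.

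The order of the levels per length put Apoe first in every group. In FACSAria TRAP, Apoe reached 1694 ± 391 CPM per kb of exon (SD, n = 4), followed by Tyrobp at 588 ± 38.2, Cd9 at 444 ± 36.01 and Trem2 at 236 ± 21.8, each apart from the next by more than their SDs. The other 6 lay far lower, from Spp1 at 28.6 ± 23.1 and Axl at 25.6 ± 9.56 through Clec7a at 21.8 ± 6.61, Itgax at 14.6 ± 6.23 and Cst7 at 12.9 ± 4.69 to Lpl at 9.83 ± 5.22, and neighbours among these did not differ beyond their SDs. The order was another in Tissue Input, where Apoe at 895 ± 73.4 was followed by Spp1 at 25.9 ± 4.10 and Cd9 at 21.2 ± 3.16, while Clec7a at 0.0385 ± 0.0350, Itgax at 0.0656 ± 0.0282 and Cst7 at 0.0692 ± 0.0462 were close to 0. Apoe and Spp1 thus stood high in whole brain before any microglial enrichment, and the Clec7a, Itgax and Cst7 transcripts were at the limit of these libraries.

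The first comparison asked which of the genes are carried by the tagged ribosomes in intact brain, before any cell is dissociated. In Tissue, 6 of the 10 genes were enriched in TRAP over Input (background, 9.23% of 15825 genes), namely Trem2, Tyrobp, Clec7a, Itgax, Cst7 and Cd9, and 4 were not called, namely Axl, Apoe, Lpl and Spp1. The median change of the 10 was 2.78 on the log2 scale, against 0.032 over all genes, and the 25 reference markers all rose with a median of 4.56.

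Trem2, the lipid-sensing receptor, was at 10.6, 13.9, 10.1 and 10.1 CPM in the Input libraries of mice 1 to 4 of Tissue and at 285, 261, 321 and 279.7 in TRAP. Tyrobp, the adaptor that carries the TREM2 signal, was at 8.88, 11.6, 8.30 and 10.01 CPM in Input and 262, 277, 334 and 270.3 in TRAP. For both genes every TRAP library lay more than an order of magnitude above every Input library. The log2 change was 4.68 ± 0.12 (SE, adjusted p = 1.72e-31) for Trem2 and 4.88 ± 0.11 (SE, adjusted p = 1.1e-32) for Tyrobp, close to the median of the reference markers.

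Clec7a, a receptor for beta-glucans (dectin-1), was at 0, 0.0466, 0.185 and 0.174 CPM in Tissue Input and 3.60, 3.64, 5.72 and 2.56 in TRAP. The Input values stood for 0 to 4 counts a library, and the ratio of the pooled counts was 37.98 (95% counting interval, 19.7 to 83.97). Cst7, a cysteine protease inhibitor (cystatin F), was at 0, 0.0933, 0.0927 and 0.0870 CPM in Input, from 0 to 2 counts, and 2.70, 1.73, 2.99 and 2.44 in TRAP, with a pooled ratio of 35.9 (95% counting interval, 16.2 to 99.3). Itgax, the integrin CD11c, was at 0.390, 0.466, 0.185 and 0.218 CPM in Input and 3.80, 5.56, 5.31 and 4.18 in TRAP. The groups did not overlap for any of these 3 low genes, and the Itgax change was 3.88 ± 0.42 (SE, adjusted p = 2.61e-10).

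Cd9, a tetraspanin of the cell surface that many cell types carry, was at 43.6, 52.04, 40.3 and 36.99 CPM in Tissue Input and 146, 121, 157 and 128 in TRAP. The groups were apart, yet the change of 1.67 ± 0.12 (SE, adjusted p = 3.14e-16) was well under that of Trem2. Axl, a receptor tyrosine kinase that binds GAS6 on dying cells, was at 35.3, 38.4, 34.3 and 31.6 CPM in Input and 42.9, 38.4, 50.3 and 42.5 in TRAP. The Axl ranges touched, at a change of 0.32 ± 0.25 (SE, adjusted p = 0.411).

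Apoe, the lipid carrier that astrocytes also make, was at 1955, 2112, 1833 and 1751 CPM in Tissue Input and 2432, 1911, 2767 and 2382 in TRAP. Lpl, the lipase that frees fatty acids from lipoproteins, was at 16.9, 19.03, 17.9 and 21.2 CPM in Input and 16.5, 19.9, 20.3 and 24.3 in TRAP. Spp1, the secreted matrix protein osteopontin, was at 42.7, 52.2, 37.97 and 37.7 CPM in Input and 28.6, 37.1, 36.3 and 20.4 in TRAP. The ranges overlapped for Apoe and Lpl and were apart, with TRAP lower, for Spp1, but no change passed the test, at 0.31 ± 0.20 (SE, adjusted p = 0.271) for Apoe, 0.11 ± 0.36 (SE, adjusted p = 0.875) for Lpl and -0.48 ± 0.57 (SE, adjusted p = 0.613) for Spp1. Summed markers of 10 neuronal genes were at 7413 to 7660.0 CPM in Tissue Input and 6649 to 7568 in Tissue TRAP, and those of 10 astrocyte genes at 3212 to 3450.1 and 3513 to 5382, so RNA of other cells was present in both fractions. Its part in the values of these 4 genes was not tested.

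The second set of libraries of the same 4 mice gave the same 6 calls (background, 8.21%), with log2 changes of 4.87 for Trem2, 5.16 for Tyrobp and 1.82 for Cd9. In the unsorted Cell suspension 7 genes were enriched in TRAP (background, 16.8%), the same 6 and Lpl, with a median change of 2.16 against -0.070 over all genes. Lpl was at 7.78, 5.08, 8.32 and 7.998 CPM in Cell Input and 27.4, 26.6, 35.4 and 29.9 in Cell TRAP, so that the fractions, which overlapped in Tissue, were apart after dissociation, with a change of 2.03 ± 0.39 (SE, adjusted p = 1.17e-05). Of all genes called in this Cell comparison, 35.2% were higher in TRAP, and 20.996% with the size factors of DESeq2 in place of TMM, which put the median of all genes at -0.48.

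The second comparison asked how the genes differ between brain homogenized at once and brain first made into a cell suspension. In Input, Cell was higher than Tissue for 8 genes (background, 28.5% of 15750) and lower for Lpl and Spp1 (background, 17.5%), with a median of 2.97 against 0.17 over all genes. Trem2 was at 115, 153, 149 and 154 CPM and Tyrobp at 90.97, 108, 97.7 and 111 in Cell Input, all far over the Tissue Input values given above. Lpl at 7.78, 5.08, 8.32 and 7.998 CPM and Spp1 at 12.6, 13.6, 16.5 and 11.2 lay below every Tissue Input library, with changes of -1.26 ± 0.35 (SE, adjusted p = 0.00275) and -1.56 ± 0.54 (SE, adjusted p = 0.0125). Clec7a was at 4.67, 5.34, 5.82 and 6.21 CPM in Cell Input and Cst7 at 2.11, 1.18, 0.984 and 1.29, for ratios of pooled counts of 53.3 (95% counting interval, 27.8 to 117) and 19.7 (95% counting interval, 8.74 to 54.7). Apoe was the member nearest the 2-fold rule, at 1.05 ± 0.19 (SE, adjusted p = 3.37e-05), and it was not called with DESeq2 size factors (0.96) or with the mouse as a replicate block (0.92). The neuronal marker sum went from 7413 to 7660.0 CPM in Tissue Input to 552 to 1222 in Cell Input, while the oligodendrocyte sum went from 3216 to 3828 to 9564 to 14339.6, and their part in these changes was not tested.

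In TRAP, Cell was higher than Tissue for 6 genes (Trem2, Clec7a, Axl, Itgax, Cst7 and Cd9; background, 25.1% of 14953) and lower for none, with a median of 1.58 against -0.011 over all genes. At an unadjusted p under 0.05, 8 of the genes differed. Of all called genes 46.2% were higher in Cell, and 35.05% with DESeq2 size factors, which set the median of all genes at -0.34.

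Trem2 in Cell TRAP was at 906, 1004, 1082 and 1147 CPM, and every value was over the Tissue TRAP range of 261 to 321. The log2 change was 1.87 ± 0.082 (SE, adjusted p = 1.55e-16). Tyrobp at 393, 506, 511 and 571 CPM was also over its Tissue TRAP range of 262 to 334, but by less than 2-fold, at 0.81 ± 0.091 (SE, adjusted p = 1.41e-08).

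Clec7a was at 36.8, 18.9, 30.3 and 26.1 CPM in Cell TRAP and Itgax at 35.6, 27.96, 36.4 and 31.6, with no overlap with Tissue TRAP. The changes were 2.85 ± 0.25 (SE, adjusted p = 9.43e-11) and 2.81 ± 0.30 (SE, adjusted p = 4.78e-09). Axl at 123, 91.7, 101 and 109 CPM and Cst7 at 8.68, 8.14, 11.9 and 13.6 were likewise apart from Tissue TRAP, at 1.30 ± 0.21 (SE, adjusted p = 5.89e-06) and 2.11 ± 0.32 (SE, adjusted p = 1.92e-06), and Axl was under 2-fold with DESeq2 size factors (0.97). Cd9 at 622, 649.8, 737 and 751 CPM stood far above its Tissue values, at 2.33 ± 0.10 (SE, adjusted p = 5.56e-17).

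Apoe, Lpl and Spp1 moved less under TMM. Apoe was at 5756, 3368, 3576 and 3695 CPM in Cell TRAP, with the first library well above the other 3, and its change of 0.80 ± 0.19 (SE, adjusted p = 0.000456) passed the p threshold but not the 2-fold one. In that first library the 8 border-associated macrophage markers summed to 2444 CPM, against 957 to 1054 in the others, and their part in the Apoe value was not tested. Lpl and Spp1 were not called, at 0.57 ± 0.35 (SE, adjusted p = 0.131) and -0.44 ± 0.56 (SE, adjusted p = 0.472).

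The change from Tissue to Cell differed between the fractions for 6 genes. It was smaller in TRAP than in Input for Trem2 (-1.82), Tyrobp (-2.60), Clec7a (-2.78), Itgax (-1.35) and Cst7 (-2.06), as the log2 change in TRAP minus that in Input, and larger in TRAP for Lpl (1.92 ± 0.53, adjusted p = 0.00217). The background was 29.5% of genes with a smaller and 5.74% with a larger change in TRAP, and the members' median of -0.9996 stood beside -0.29 over all genes. Of all called genes 16.3% had the larger change in TRAP, and 5.23% with DESeq2 size factors, where the median of all genes was -0.61.

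To compare the genes with the microglial content of the same libraries, the counts were also scaled so that the median ratio over the 25 reference markers was level. This scaling moved the median of all genes to -2.43 in TRAP and -4.12 in Input, so each value is read relative to it or to the reference markers. In TRAP, 5 genes were then lower in Cell than in Tissue (background, 81.9%) and none was higher. The direction flipped against TMM for Tyrobp (-1.61 ± 0.10), Axl (-1.11 ± 0.20), Apoe (-1.59 ± 0.19) and Lpl (-1.85 ± 0.34), which were called lower, and for Trem2 (-0.55 ± 0.076), Cst7 (-0.29) and Cd9 (-0.080), which were not, while Spp1 was lower under both scalings and reached -2.88 ± 0.59. Clec7a (0.46) and Itgax (0.40) stayed above 0 but were not called. In Input the same scaling left Clec7a higher (background, 0.514%), at 1.55 ± 0.47 (SE, adjusted p = 0.00367) from few Tissue counts, and put Axl, Apoe, Lpl, Spp1 and Cd9 lower (background, 93.3%), with a members' median of -1.30, so that Axl (-2.26), Apoe (-3.23) and Cd9 (-1.82), and without a call Trem2 (-0.50) and Tyrobp (-0.77), flipped there too.

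**Figure D2:**
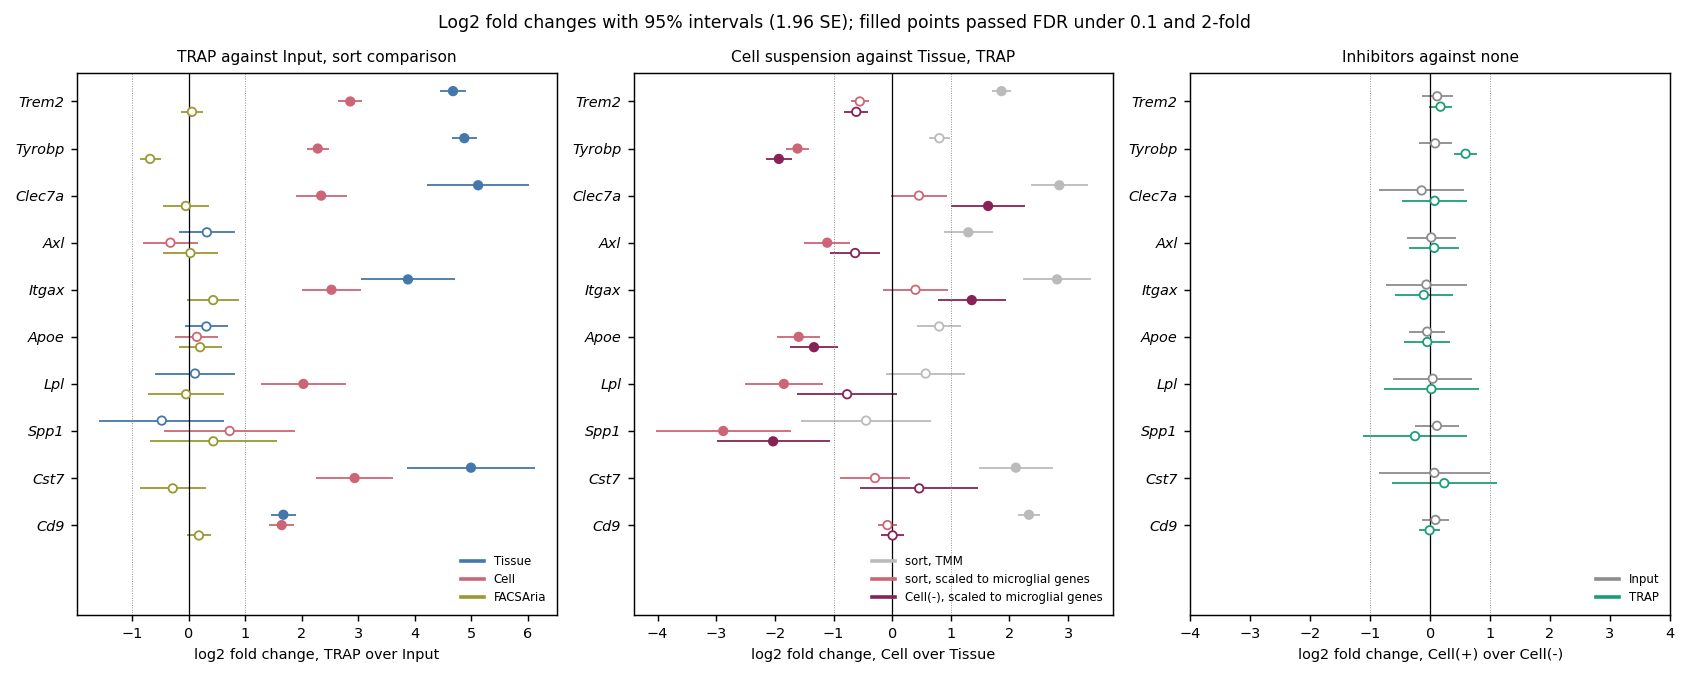
Log2 fold changes of the 10 genes (x axis) with 95% intervals, filled where called. The panels show TRAP against Input in Tissue, Cell and FACSAria, Cell against Tissue in TRAP under TMM and scaled to microglial genes, and Cell(+) against Cell(-), and the Tissue values of Clec7a and Cst7 rest on few Input counts. In the middle panel Clec7a and Itgax stay above 0 under the scaling while Tyrobp, Apoe, Lpl and Spp1 lie below it.

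The next comparison set the sorted preparations beside Cell. They came from different mice, so sorting and mouse cannot be told apart here. In Input, the mean of the 4 sorts was over Cell for 7 genes (background, 17.1%), with a median of 2.65 against -0.089 over all genes. Axl and Apoe were the exceptions in level, at 48.9 to 190.1 and 2260.5 to 4979 CPM over the 16 sorted Input libraries, and their changes of -0.39 ± 0.20 (SE, adjusted p = 0.0803) and -0.31 ± 0.15 (SE, adjusted p = 0.0557) were under 2-fold. Spp1 was not called either, at 0.76 ± 0.45 (SE, adjusted p = 0.117). The astrocyte sum was 7079.8 to 9481 CPM in Cell Input and 208 to 519 in the sorted Input libraries. The lowest sorted Axl value came from autoMACS Input replicate 3, the shallowest library of this comparison. Its reference markers summed to 48348 CPM, against 64759 to 81092 in the other sorted Input libraries, and the part of this was not tested.

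In TRAP, the sorts differed from Cell for 1 gene (background, 0.836% higher), and the members' median was 0.35 against -0.052 over all genes. That gene was Lpl, which rose from 26.6 to 35.4 CPM in Cell TRAP to 46.2 to 175 in the 16 sorted TRAP libraries, with no overlap, at 1.42 ± 0.29 (SE, adjusted p = 0.000191). Under the scaling to reference markers Lpl was again the member called (background, 0.361%), at 1.09 ± 0.27 (SE, adjusted p = 0.00137), beside a median of all genes of -0.37. Clec7a at 0.80 ± 0.17 (SE, adjusted p = 0.00034), Itgax at 0.91 ± 0.21 (SE, adjusted p = 0.000773), Cd9 at 0.44 ± 0.075 (SE, adjusted p = 2.41e-05) and Trem2 at 0.26 ± 0.064 (SE, adjusted p = 0.00135) passed the p threshold with changes under 2-fold, and of these Trem2 flipped to -0.062 under the scaling. Without autoMACS to Tyto TRAP replicate 3 the scaled Lpl change was 0.96 and not called. Tyrobp passed it in the other direction, at -0.18 ± 0.071 (SE, adjusted p = 0.0333), and was at -0.50 under the scaling. Axl, Apoe, Cst7 and Spp1, at 0.15, -0.027, 0.14 and 0.65, did not pass it.

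Between the 4 sorts no member was called, in Input (background, 7.42%) or in TRAP (background, 4.17%), by edgeR's F test with a largest difference over 2-fold. At an unadjusted p under 0.05 there were 0 members in Input and 4 in TRAP, and this test was not run in DESeq2. Trem2 and Tyrobp passed the adjusted threshold in TRAP, with largest differences between sorts of 0.33 (adjusted p = 0.0115) and 0.53 (adjusted p = 0.000456) on the log2 scale. Tyrobp was at 515 to 624 CPM in autoMACS TRAP, 399 to 442 in autoMACS to Tyto, 411 to 440.1 in Tyto and 372 to 429.8 in FACSAria, so the magnetic beads alone stood above the other 3 without overlap. Trem2 did so as well, at 1380 to 1501 CPM in autoMACS TRAP, where the highest value of the other sorts was 1314 in Tyto. Cd9 at 1038.8 to 1104 CPM in autoMACS TRAP was barely above its Tyto maximum of 1038.0. The largest differences were 1.42 for Spp1 (adjusted p = 0.242) and 0.90 for Cst7 (adjusted p = 0.114), and both genes varied widely between libraries, as described below. Without autoMACS TRAP replicate 1 or 2, Cst7 was called, at 1.09 and 1.06, and without autoMACS to Tyto TRAP replicate 3 both Spp1 (2.52) and Cst7 (1.22) were.

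This test treats libraries of shared mice as separate, so the pairs of sorts made from the same mice were also compared with the mouse as a block, a comparison added after the values were seen. Spp1 was lower after both sorts than after the beads alone in each of the 3 shared mice. It went from 19.97 to 6.89, 23.7 to 10.8 and 86.8 to 34.1 CPM in Input (background, 0.706% lower) and from 24.3 to 8.29, 31.6 to 11.2 and 112 to 44.7 in TRAP (background, 0.601% lower). Both changes were called by edgeR, at -1.28 ± 0.14 (SE, adjusted p = 0.00207) and -1.44 ± 0.11 (SE, adjusted p = 0.00109), and stayed called without any 1 of the mice, at -1.39 to -1.198 in Input and -1.53 to -1.36 in TRAP. Border-associated macrophage markers summed to 758 to 1394 CPM in autoMACS TRAP and 1194 to 2508 in autoMACS to Tyto TRAP, monocyte and neutrophil markers were at 101 to 187 and 33.6 to 142 in Input, and their part in the Spp1 values was not tested. In TRAP, Cst7 at -0.63 ± 0.16 (SE, adjusted p = 0.0291) and Tyrobp at -0.46 ± 0.080 (SE, adjusted p = 0.00881) passed the p threshold below 2-fold, as did Trem2 (-0.30), Cd9 (-0.22), Clec7a (-0.27), Axl (0.40) and Itgax (0.25). Between FACSAria and Tyto no member was called by edgeR in Input (background, 0%) or TRAP (background, 0.12%), with 2 and 0 members at an unadjusted p under 0.05, and DESeq2 was not run for these pairs.

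Within sorted preparations, no member was called between Input and TRAP in autoMACS (background, 17.5%), autoMACS to Tyto (5.4%), Tyto (17%) or FACSAria (10.3%) by edgeR or DESeq2, with 3, 2, 3 and 1 members at an unadjusted p under 0.05. The adaptor Tyrobp was lower in TRAP in all 4 sorts, by less than 2-fold. Its values were 608 to 822 CPM over the sorted Input and 372 to 624 over the sorted TRAP libraries, and the log2 changes were -0.41 ± 0.094 (SE, adjusted p = 0.000824) in autoMACS, -0.88 ± 0.11 (SE, adjusted p = 4.71e-08) in autoMACS to Tyto, -0.72 ± 0.084 (SE, adjusted p = 5.37e-09) in Tyto and -0.69 ± 0.094 (SE, adjusted p = 5.53e-07) in FACSAria. Its receptor partner Trem2 was at 923 to 1355 CPM in sorted Input and 1019 to 1501 in sorted TRAP, with changes of 0.23, -0.0044, 0.083 and 0.056 in the same order. A difference between the 2 genes was not tested. The other members that passed the p threshold in a sort were higher in TRAP, namely Cd9 in autoMACS, at 0.45 ± 0.11 (SE, adjusted p = 0.0018), and in Tyto, at 0.28 ± 0.10 (SE, adjusted p = 0.0249), Itgax in Tyto, at 0.62 ± 0.21 (SE, adjusted p = 0.0183), and Trem2 in autoMACS (adjusted p = 0.0727). By direction alone, TRAP was over Input of the same preparation in 16 of 16 for Cd9, Itgax and Spp1, 15 for Apoe, 12 for Trem2, 9 for Axl, 7 for Lpl, 4 for Cst7, 3 for Clec7a and 0 for Tyrobp.

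The cell preparation comparison asked whether blocking transcription and translation during the enzymatic step, or avoiding the enzymes, keeps the cells nearer to intact brain. Between Cell(+) and Cell(-), no member was called in Input (background, 0.311%) or in TRAP (background, 0.638%), by edgeR or by DESeq2, and 0 and 1 members were at an unadjusted p under 0.05. A list of 14 early response genes (such as Fos, Fosb, Egr1 and Atf3), in contrast, fell with inhibitors for all 14 in TRAP, with a median of -4.94, and its summed level was 21258 to 37662 CPM in Cell(-) TRAP and 927 to 1035 in Cell(+) TRAP. The members' median was 0.044 in TRAP and 0.057 in Input.

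**Figure D3:**
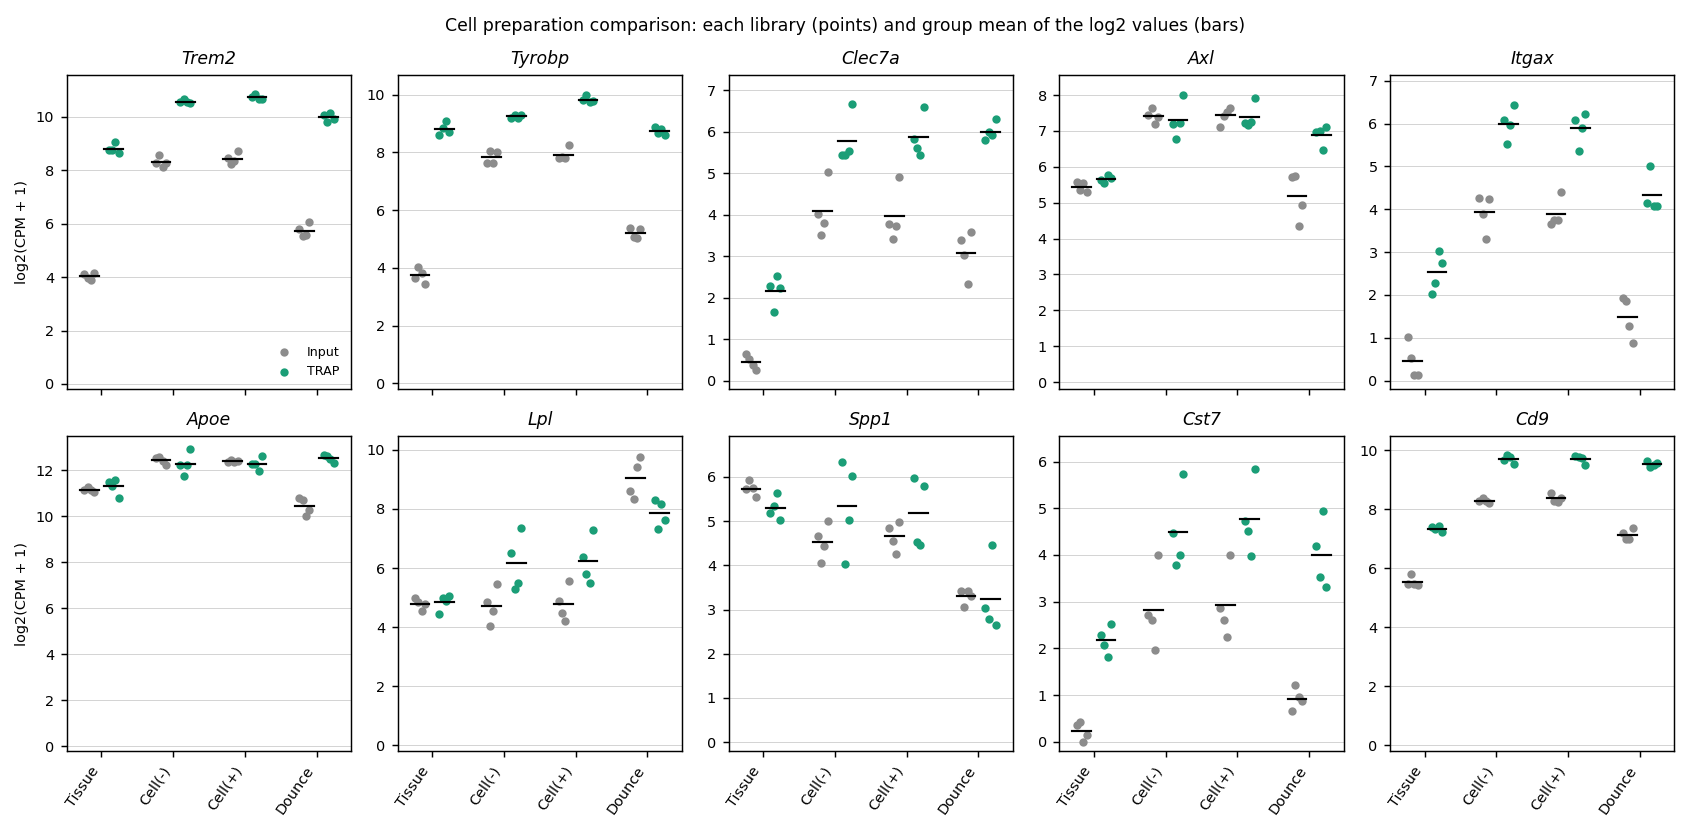
Levels of the 10 genes in the cell preparation comparison as log2(CPM + 1) on the y axis, for Tissue, Cell(-), Cell(+) and Dounce on the x axis. Points are libraries (grey, Input, green, TRAP) and bars are means of the log2 values. Cell(-) and Cell(+) overlap in TRAP for each gene but Tyrobp and, by a small step, Trem2, and in Dounce the Lpl Input points stand above TRAP while Spp1 lies lowest.

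The intervals around these differences were narrow for the abundant genes. Trem2 was at 1526, 1611, 1490.0 and 1465 CPM in Cell(-) TRAP and 1736, 1835, 1649 and 1613 in Cell(+) TRAP, and all Cell(+) values were above all Cell(-) ones, at 0.17 ± 0.10 (SE, adjusted p = 0.675), with a 95% interval of -0.013 to 0.36. Each of the 4 mice, whose brains gave a library to both groups, was higher with inhibitors, and with the mouse as a block Trem2 was at 0.19 ± 0.046 (SE, adjusted p = 0.0202), under 2-fold. Cd9 was at 820.1, 920.3, 871 and 743 and 883, 868, 841 and 726 CPM, overlapping throughout, at -0.0083 (interval -0.18 to 0.17). For the low genes the intervals were wider and do not show that they acted alike, with -0.78 to 0.82 for Lpl, -1.12 to 0.62 for Spp1, -0.64 to 1.11 for Cst7, -0.47 to 0.62 for Clec7a, -0.35 to 0.49 for Axl and -0.59 to 0.38 for Itgax. That of the abundant Apoe was -0.43 to 0.34.

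Tyrobp differed by more. It was at 586, 633, 587 and 619 CPM in Cell(-) TRAP and 905, 999.9, 864 and 866 in Cell(+) TRAP. The groups did not overlap, and again each of the 4 mice was higher with inhibitors. The change of 0.59 ± 0.10 (SE, adjusted p = 0.00232) was 1.51-fold, under the 2-fold rule, and was 0.54 ± 0.11 (SE, adjusted p = 0.0172) when scaled to the reference markers (background, 0.632%). Tyrobp in Input was at 198, 266, 196 and 254 CPM in Cell(-) and 224, 228, 220.3 and 301 in Cell(+), which overlapped, at 0.084 ± 0.14 (SE, adjusted p = 1). The difference between the fractions was 0.50 ± 0.18 (SE, adjusted p = 0.62), and no member was called in that test (background, 0.145%), with 1 at an unadjusted p under 0.05.

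Each suspension was also set beside Tissue, with the same Tissue libraries serving each comparison. The suspensions came from other mice than Tissue, so preparation and mouse cannot be told apart in these values. In TRAP, 8 genes were higher in Cell(-) (background, 22.3%), 9 in Cell(+) (background, 21.6%), where Tyrobp was also called, and 8 in Dounce (background, 23.2%), where Spp1 was lower (background, 27.1%). The medians were 1.78, 1.91 and 1.70, against -0.13, -0.13 and -0.060 over all genes. Apoe, at 1.07 ± 0.20 in Cell(-) and 1.02 ± 0.20 in Cell(+), was not called without Tissue replicate 4 (0.93 and 0.88) or without replicate 4 of the suspension (0.81 and 0.90), nor in Cell(+) with DESeq2 size factors (0.99). Clec7a stood out in size at 3.84, 2.18, 4.72 and 3.70 CPM in Tissue TRAP, 42.01, 42.5, 45.6 and 99.7 in Cell(-), 55.6, 47.5, 42.3 and 95.1 in Cell(+) and 54.3, 62.7, 59.4 and 77.5 in Dounce. All 3 suspensions lay far above Tissue, at 4.03 ± 0.34 (SE, adjusted p = 3.94e-09), 4.10 ± 0.34 (SE, adjusted p = 3.18e-09) and 4.18 ± 0.35 (SE, adjusted p = 4.89e-09). From Tissue TRAP to the TRAP libraries of the suspensions, border-associated macrophage markers went from 222 to 297 CPM to 748 to 1903, and neuronal markers from 8665 to 9648 to 68.1 to 2425. The monocyte and neutrophil sum was 1.97 to 3.18 CPM in Tissue TRAP, 10.9 to 16.9 in the enzymatic suspensions and 19.997 to 36.1 in Dounce, and the part of these cells in the Clec7a values was not tested.

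Scaled to the reference markers, which moved the median of all genes to -2.54, -2.59 and -2.20, Clec7a remained above Tissue in all 3, at 1.64 ± 0.32 (SE, adjusted p = 0.000117) in Cell(-), 1.65 ± 0.32 (SE, adjusted p = 0.000109) in Cell(+) and 2.07 ± 0.33 (SE, adjusted p = 1.25e-05) in Dounce. Itgax was called in Cell(-) (1.36 ± 0.30 (SE, adjusted p = 0.000318)) and Cell(+) (1.19 ± 0.30) but not in Dounce (-0.042), and Lpl in Dounce (1.02 ± 0.44 (SE, adjusted p = 0.0387)). With 2 genes higher in each, the backgrounds were 0.849%, 0.374% and 1.55%. In the sorting comparison, whose Tissue and Cell shared mice, neither Clec7a nor Itgax was called in TRAP under this scaling. Tyrobp, Apoe and Spp1 were lower than Tissue in Cell(-) (background, 83.9%) and Cell(+) (background, 85.2%), and Tyrobp and Spp1 in Dounce (background, 78.2%). All 3 had lain above Tissue under TMM in the enzymatic suspensions, so their direction flipped with this scaling, to -1.93, -1.33 and -2.03 in Cell(-), and that of Trem2 (-0.61), Axl (-0.63) and Lpl (-0.77) flipped there without a call. In Dounce the direction flipped for Trem2 (-0.90), Axl (-0.81), Apoe (-0.88) and Itgax (-0.042), none of them called. The Lpl call in Dounce was lost without Tissue replicate 1 (0.88) or 3 (0.99) or Dounce replicate 1 (0.90) or 3 (0.91), Lpl was called lower without replicate 4 of Cell(-) (-1.29) or Cell(+) (-1.28), and Apoe was called lower in Dounce without Tissue replicate 4 (-1.03).

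The enzyme-free Dounce preparation, from other mice, held far more Lpl than Cell(-), and less Spp1. The paper reports the lowest RNA integrity and RNA yield for Dounce Input, which needed whole brains. It also reports more 3′ bias in both Tissue and Dounce than in the enzymatic suspensions. The part of RNA quality in the Dounce values, and of this bias in the comparisons of enzymatic suspensions with Tissue, was not tested. Lpl in Input was at 30.9, 27.6, 22.1 and 26.7 CPM in Tissue, 27.9, 15.3, 22.6 and 43.4 in Cell(-) and 393, 323, 679 and 874 in Dounce. The Dounce values lay far above every other Input library of this comparison, at 4.61 ± 0.37 (SE, adjusted p = 1.04e-09) against Tissue and 4.72 ± 0.37 (SE, adjusted p = 6.65e-10) against Cell(-). Dounce TRAP held 315, 159, 287 and 196 CPM of Lpl, which was less than Input in each mouse, at -1.25 ± 0.40 (SE, adjusted p = 0.00634), or -0.96 and not called without Dounce Input replicate 4. With all libraries kept, Lpl was thus called lower in TRAP than in Input in Dounce (background, 26.7% lower). In contrast, 8 other members were enriched there (background, 20.8%, median 2.70). Beside this, Dounce Input held 3615 to 4158 CPM of neuronal markers, against 556 to 1004 in Cell(-) Input, and 306, 143, 876 and 185 CPM of 6 monocyte and neutrophil markers, against 22.9 to 76.9. The part of these cells in the Lpl values was not tested.

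Spp1 went the other way. It was at 79.5, 15.2, 31.6 and 63.6 CPM in Cell(-) TRAP and 7.25, 5.89, 20.97 and 5.25 in Dounce TRAP, where 3 libraries lay under all others and the third reached into the Cell(-) range. The change was -2.34 ± 0.53 (SE, adjusted p = 0.00113). In Input, Spp1 was at 51.9, 59.4, 52.5 and 45.9 CPM in Tissue and 9.74, 7.38, 9.69 and 8.96 in Dounce, at -2.35 ± 0.20 (SE, adjusted p = 3.3e-09).

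Across the 10 genes, Dounce Input was over Tissue Input for 7 (background, 28.7%) and under it for Spp1 (background, 21.4%), with a median of 1.91 against 0.10. Against Cell(-) Input, Lpl was higher (background, 28.8%) and 7 genes lower (background, 28.1%), with a median of -1.70 against -0.058, where Spp1 at -1.01 was not called without Cell(-) replicate 1 (-0.97) or 4 (-0.82) or Dounce replicate 2 (-0.91), beside 23 of 25 reference markers lower with a median of -1.72. In TRAP, Lpl was higher in Dounce than in Cell(-) (background, 20.7%), at 1.53 ± 0.42 (SE, adjusted p = 0.00485), and Itgax and Spp1 lower (background, 8.02%). Itgax was at 66.7, 45.1, 61.4 and 85.2 CPM in Cell(-) TRAP and 16.7, 31.2, 15.9 and 15.7 in Dounce TRAP, without overlap, at -1.67 ± 0.27 (SE, adjusted p = 5.52e-05). Apoe at 0.18, Clec7a at 0.16 and Cd9 at -0.16 were not called, and Cst7 at -0.62 was called lower only without Dounce replicate 3 (-1.04).

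The Input libraries of Cell(-) and Cell(+) gave 8 members higher (backgrounds, 25.6% and 25.5%) and Spp1 lower (backgrounds, 19.1% and 20.2%) than Tissue, and Lpl uncalled at -0.11 ± 0.34 (SE, adjusted p = 0.779) and -0.068 ± 0.34 (SE, adjusted p = 0.864). TRAP over Input called 8 members in Cell(-) (background, 10.6%) and 7 in Cell(+) (background, 9.71%). The eighth was Spp1, at 1.06 ± 0.37 (SE, adjusted p = 0.0112), which was not called without Cell(-) TRAP replicate 1 (0.69) or 4 (0.89) or Input replicate 2 (0.91). Axl and Apoe were in neither set, with Axl at 175, 198, 144 and 165 CPM in Cell(-) Input and 146, 109, 147 and 253 in Cell(-) TRAP, overlapping. In Dounce, in contrast, both were enriched, Axl from 51.1, 52.2, 19.2 and 29.6 CPM in Input to 126, 127, 86.99 and 137 in TRAP and Apoe from 1772, 1668, 1043 and 1244 to 6499.9, 6307, 5736 and 5036. Neither pair of ranges overlapped, and the changes were 1.63 ± 0.24 (SE, adjusted p = 5.49e-07) and 2.04 ± 0.19 (SE, adjusted p = 6.19e-11). The astrocyte sum was 8182 to 12497 CPM in Cell(-) Input and 1155 to 3045 in Dounce Input, and its part in these values was not tested.

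The sorted libraries differed widely in some of the genes and little in others, a spread in which mouse, hemisphere and sort are mixed. Over the 16 sorted TRAP libraries, Spp1 ranged from 8.29 to 112 CPM, a 13.5-fold span with a CV of 76.3%, and Lpl from 46.2 to 175 CPM, with a CV of 43.7%. Cst7 (40.7%), Itgax (31.004%) and Axl (27.5%) also varied more than most genes, while Trem2 (10.9%) and Cd9 (10.2%) lay under the median of 11.9% over the 8360 genes with a mean of at least 10 CPM. The CV of Spp1 was over that of 99.9% of these genes, that of Lpl over 99.5% and that of Cst7 over 99.3%. The 25 reference markers had a median CV of 8.05%, from 4.77% to 16.7%, so they varied far less than Spp1, Lpl and Cst7.

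The spread was seen in both fractions of a preparation. In FACSAria, Spp1 was at 56.9, 10.4, 11.8 and 60.9 CPM in Input and 65.2, 12.99, 18.1 and 92.2 in TRAP of the same 4 mice, with the first and the last high and the other two low in both. Lpl was at 131, 70.1, 72.3 and 153 CPM in Input and 116, 59.97, 61.1 and 175 in TRAP, with the same mice high and low. In autoMACS, Lpl was at 46.7, 56.9, 130.1 and 136 CPM in Input and 52.9, 48.9, 89.1 and 111 in TRAP, where the third and the last mice were high in both.

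Over 10 pairs of groups made from the same mice (Input and TRAP of 1 preparation, or 2 preparations of the same brains), the same mouse was highest in both groups in 4 pairs for the median of 8338 genes with a mean of at least 10 CPM. It was so in 10 pairs for Cst7, 9 for Lpl, 8 each for Clec7a and Spp1, 7 for Axl and 6 for Apoe. The count was 5 for Trem2 and Itgax, 4 for Cd9 and 3 for Tyrobp. The same mouse was lowest in 7 pairs for Cd9, 6 each for Trem2, Axl, Apoe and Spp1, 5 for Cst7, 4 each for Lpl and Itgax and 3 each for Tyrobp and Clec7a, beside a median of 4 over all these genes. These pairs share libraries and are given as counts only. In the cell preparation comparison the last mouse of Cell(-) and Cell(+) was highest in each of the 4 groups for Lpl, at 89.4, 37.9, 43.8 and 163 CPM in Cell(-) TRAP and 82.4, 54.1, 43.9 and 157 in Cell(+) TRAP, for Cst7, at 21.2, 12.8, 15.03 and 52.5 and 25.6, 21.8, 14.7 and 56.6, and for Clec7a, given above. Its libraries had 1692 CPM of border-associated macrophage markers in Cell(-) TRAP, the highest of 4, and 989 in Cell(+) TRAP, where another mouse had 1235. The level of a mouse also moved between sorts, as Spp1 in TRAP differed between Tyto and FACSAria by 1.69 to 3.23-fold in the 3 shared mice and was higher in FACSAria in 2 of them, beside the step between autoMACS and autoMACS to Tyto given above.

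**Figure D4:**
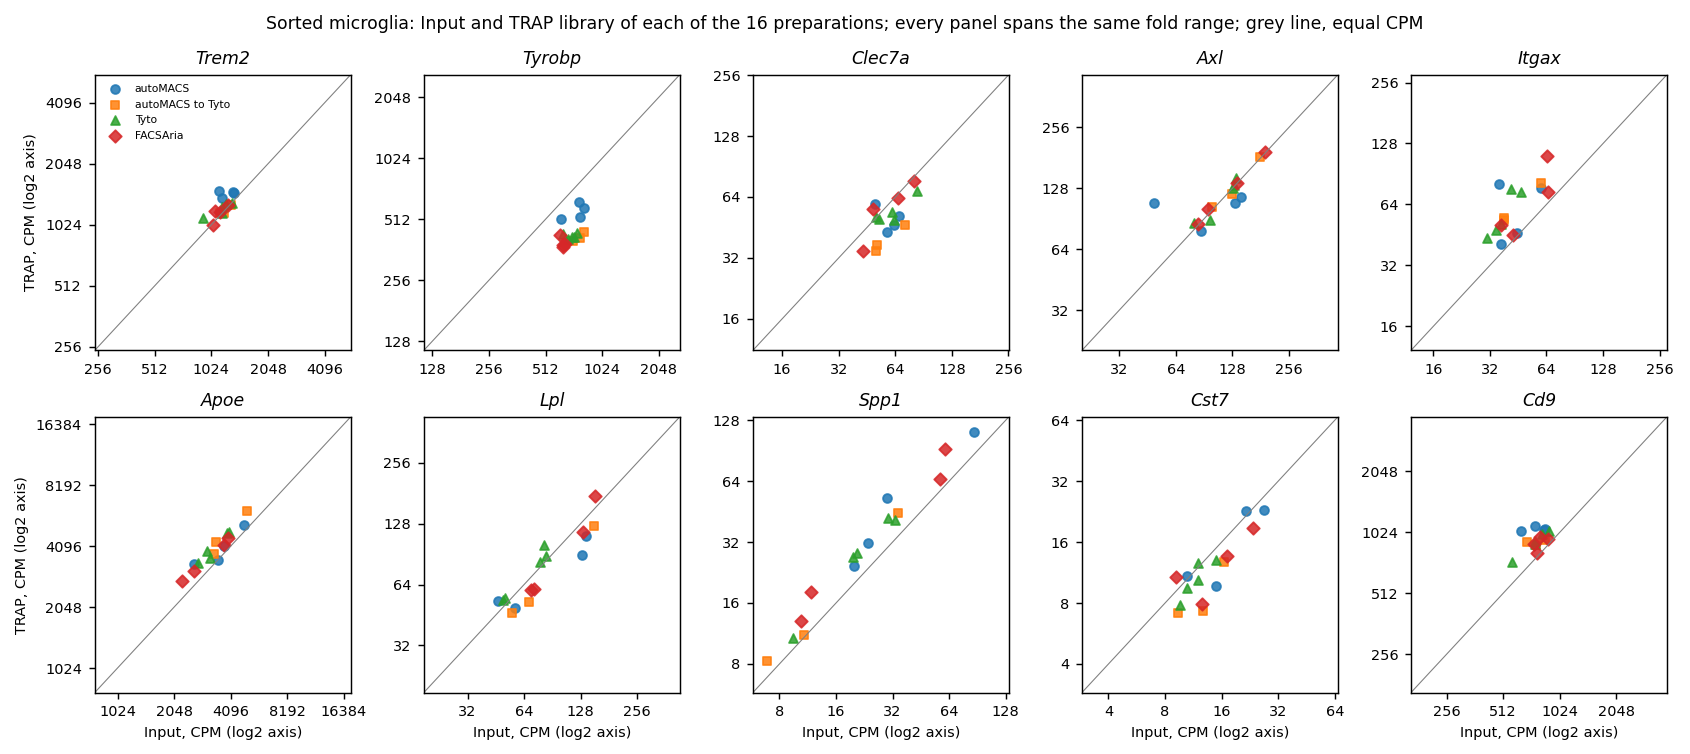
Input (x axis) against TRAP (y axis) CPM of the 10 genes in the 16 sorted preparations, on log2 axes that span the same fold range in each panel, with a grey line where both are equal. Points are preparations coloured by sort. Spp1 and Lpl are strung out along the line, while Trem2, Tyrobp and Cd9 form tight clouds, with Tyrobp under the line.

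Of 28 other disease-associated microglia genes, taken from a list of known genes, 16 were enriched in Tissue TRAP and 1 depleted (9.23% and 1.87% of all genes), with a median of 1.27. The chemokine gene Ccl6 (5.14 ± 0.18), the lysozyme gene Lyz2 (4.88 ± 0.21), Cd52 (4.73 ± 0.19) and the lysosomal gene Cd68 (4.49 ± 0.17) rose most on the log2 scale, and the ferritin gene Fth1 (-1.12 ± 0.13) fell. From Tissue to Cell in TRAP 18 rose and 2 fell (25.1% and 29.3% of all genes), with a median of 1.68, led by the chemokine genes Ccl3 (6.72 ± 0.34) and Ccl4 (6.33 ± 0.35). Scaled to reference markers, 2 rose and 12 fell (1.06% and 81.9% of all genes), with Ccl3 (4.33 ± 0.35) and Ccl4 (3.95 ± 0.36) the ones that rose, and those falling most included Baiap2l2 (-5.08), the fatty acid binding protein gene Fabp5 (-4.97) and the growth factor gene Igf1 (-3.33).

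With inhibitors, 3 of these 28 genes fell in TRAP and none rose, beside 0.632% of all genes that fell, namely Ccl4 (-4.80 ± 0.41), Ccl3 (-4.29 ± 0.37) and Cd83 (-1.44 ± 0.24), an activation marker. The same 3 fell in Input, at -5.06, -4.28 and -1.76. Of the 28, 25 were not called in either fraction, as none of the 10 members was. From Cell to the sorts in TRAP 1 of the 28 fell, Fabp5 (-2.38 ± 0.26), where 23.6% of all genes fell. Dounce differed from Cell(-) in TRAP by 1 that rose, Igf1 (1.51 ± 0.29), and 7 that fell. Those furthest were Ccl3 (-5.49), Ccl4 (-5.06), Gpnmb (-3.46) and Cd83 (-1.89).

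Partners of TREM2 were mostly enriched with it. Of 11 genes of TREM2 signalling and shedding, 10 were enriched in Tissue TRAP, as 9.23% of all genes were, with a median of 3.97, among them the kinase gene Btk (4.72 ± 0.10), Cd33 (4.48 ± 0.23), Vav1 (4.42 ± 0.084) and Ms4a6d (4.39 ± 0.17). From Tissue to Cell in TRAP 10 rose, beside 25.1% of all genes, with a median of 2.78, led by the sheddase gene Adam17 (3.28 ± 0.086) and the inhibitory receptor gene Cd33 (3.18 ± 0.10). Scaled to reference markers none rose and 1 fell, Hcst (-1.52 ± 0.26), which encodes the adaptor DAP10, and the median was 0.37. None of the 11 was called between Cell(+) and Cell(-) in TRAP or Input, and none between Cell and the sorts in TRAP.

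Of 17 measured ligands, receptors and cofactors of the members (18 listed), 5 were enriched in Tissue TRAP, beside 9.23% of all genes, including the integrin genes Itgb2 (4.59 ± 0.14), whose product pairs with CD11c, Itgb5 (3.57 ± 0.11) and Itgb3 (2.19 ± 0.19), and Pros1 (3.17 ± 0.12), a ligand of the AXL family. Of the 3 receptors of that family, Axl was not enriched, and from Tissue to Cell in TRAP Mertk rose (3.41 ± 0.082) as Axl did while Tyro3 fell (-3.60 ± 0.32). The lipid exporter gene Abca1 rose most (3.9958 ± 0.12) and the lipoprotein receptor gene Vldlr fell (-3.49 ± 0.27). Scaled to reference markers, Abca1 (1.59 ± 0.10) and Mertk (1.0028 ± 0.075) were the 2 of 17 that rose, and 8 fell, beside 1.06% and 81.9% of all genes. In the sorts 4 of the 17 were lower than in Cell TRAP, a share near the 23.6% of all genes. They were the lipid carrier gene Clu (-6.94), Tyro3 (-4.75), Vldlr (-4.71) and the lipase inhibitor gene Angptl4 (-2.96). The inhibitors moved none of the 17 in either fraction.

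As a description of pattern, each member was set beside 9660 genes by Pearson's r over the 12 group means of log2(CPM + 1) in the sorting comparison, points that share the steps from Tissue to Cell to sorted cells. Trem2 was like Ly86 and Sfpi1 (PU.1), each at 0.999, and Cd9 was like Tfpi (0.999), Tapbp (0.998) and Birc3 (0.998). Itgax was nearest to Siglec5 (0.998), Clec7a to Tlr1 (0.996), Cst7 to Msrb2 (0.995) and Tyrobp to Ptpn18 (0.992), followed by Aif1 and Cd52 at 0.990. Axl (Ankib1, 0.982), Apoe (Cyr61, 0.973) and Lpl (Cep250, 0.973) had looser partners, and the pattern of Spp1 had none above 0.873 (Wbscr16).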

How the data were processed

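RNA was sequenced as directional poly(A) libraries, Input and TRAP, 80 in all, each of a single mouse without pooling. Per the labels and the study's methods, the authors trimmed reads, aligned them to mm10 in a strand-aware way in Strand NGS, removed duplicate reads and deposited expected counts (estimated reads per gene, mostly not whole) for genes above 5 reads in all samples of some group. The authors also deposited log2 values normalized with DESeq2 and centred on a baseline. These log2 values entered an alternative only. Removal of duplicates can compress the counts of abundant genes such as Apoe. No column of another sample and no column of the authors' fold changes or p-values was used.

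Expected counts were rounded and TMM-scaled in edgeR 4.0.16 (R 4.3.3), the same minimum was applied again (1 or more groups with all samples over 5 counts), and 1 model over all groups of a fraction (or of both fractions, for TRAP against Input and for interactions) was fitted with glmQLFit and tested with glmQLFTest. Calls needed a Benjamini-Hochberg adjusted p under 0.1, taken over all genes tested, and a change over 2-fold, as in the study. SE values are those of the log2 fold change, intervals of it are 95% normal intervals, and intervals for genes of few counts are exact and cover counting error only. Alternatives were DESeq2 1.42.0 (size factors, and its Wald test), limma 3.58.1 on the deposited log2 values, no filter, the compared groups only, an earlier deposited table, each library left out, the mouse as a block, and counts scaled to microglial reference genes. Pairs of sorts sharing mice, with the mouse as a block, were added after seeing the data. The fits were tested on simulated data first.

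Mouse numbers in the titles mark the same animals. Deviations of same-mouse libraries from their group means correlated at -0.107 to 0.361. Depths gave a range of 2471448 to 20168116 counts a library, and no pair of libraries agreed within sampling noise.

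The 10 members were described in each comparison, by value or by the count not called, other genes of the fixed lists by the largest called changes (at most 4 in each direction), and alike genes by the 3 highest Pearson correlations, of which the text gives at least the first. The members, lists and tests were chosen with earlier results of these data known. Sfpi1 in the tables is the gene now named Spi1, so 25 reference markers were measured. Exon lengths came from GENCODE, and start sites and sequences from RefSeq. Genes next to or overlapping others on the other strand were told apart only as far as the strand-aware counting allowed.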

Additional observations from a re-analysis of the deposited data

Results flagged for a closer look

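Libraries that stood far from the rest of their group were looked for by Dixon's test in 178 groups of 4 or 5 libraries of the 10 genes. It marked 15, where chance gives about 1 in 20 groups, or 8.9. In the sorting comparison, Trem2 was lowest in the first Cell Input library at 115 CPM (others 149 to 154) and highest in the second Tissue Input library at 13.9 (others 10.1 to 10.6). Clec7a was high in the third Tyto TRAP library at 68.6 CPM (others 49.2 to 54.1), and Apoe in the first Cell TRAP library at 5756 (others 3368 to 3695). Lpl was low in the second Cell Input library at 5.08 CPM (others 7.78 to 8.32). Spp1 was high in the fourth autoMACS Input library at 86.8 CPM (others 19.97 to 29.9) and in the third Cell TRAP library at 32.8 (others 18.3 to 19.2).

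In the cell preparation comparison, 5 of the marked values came from the fourth mouse of the enzymatic suspensions. Its Cell(+) Input library was high for Tyrobp at 301 CPM (others 220.3 to 228), Clec7a at 28.9 (others 9.73 to 12.7) and Itgax at 20.2 (others 11.6 to 12.4), its Cell(-) TRAP library for Clec7a at 99.7 (others 42.01 to 45.6), and its Cell(+) TRAP library for Axl at 243 (others 142 to 151). The Dounce TRAP libraries held Itgax at 31.2 CPM in the second (others 15.7 to 16.7) and Spp1 at 20.97 in the third (others 5.25 to 7.25). Cd9 was high in the second Tissue Input library at 55.1 CPM (others 41.9 to 43.3).

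The change from Tissue to Cell differed between TRAP and Input by an interaction test in edgeR. The difference, TRAP minus Input on the log2 scale, was -1.82 for Trem2, -2.60 for Tyrobp, -2.78 for Clec7a, -1.35 for Itgax, -2.06 for Cst7 and 1.92 for Lpl.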

How the results depend on the processing

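Over 35 counts of members called, 520 alternative values were within 1.5 times the reported count and 6 were not, of which 4 left out 1 library and 2 came from a comparison added after seeing the data. In it, autoMACS to Tyto against autoMACS with the mouse as a replicate block called 1 member, Spp1, in each fraction, where the test across the 4 sorts called 0. The count between the 4 sorts in TRAP was 0 and ranged from 0 to 2 over libraries left out, and the scaled count of sorts against Cell in TRAP was 1 and ranged from 0 to 1. Of 5220 alternative values of single members, 0 reversed (the flips under the scaling to reference markers are given with the results above), 29 lost and 9 gained a call, and 98 others moved by more than their spread. The mouse as a replicate block, run for the 14 comparisons of 2 groups from the same mice, changed 1 member call there, Apoe in Input between Cell and Tissue, to 0.92. The cause of these changes was not tested.

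Counts over all genes moved more. With only the compared groups, genes called between the 4 sorts went from 1169 to 484 in Input and from 624 to 394 in TRAP. TRAP against Input went from 2771 to 884 with the block and 1003 with the compared groups in autoMACS (1668 without Input replicate 3), from 2687 to 1270 and 1255 in Tyto, and from 1637 to 777 and 680 in FACSAria (823 without Input replicate 4). It went from 855 to 513 in autoMACS to Tyto without TRAP replicate 2. Cell(+) against Cell(-) in TRAP went from 94 to 150 with the block. With the compared groups alone the share of calls higher in TRAP went from 22.4% to 37.9% in Cell(-) and from 21.3% to 33.8% in Cell(+). Depth limited Clec7a, Itgax and Cst7 in Tissue Input, where few counts stood behind each value.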
